A study of Homo sapiens with 6 samples.

Results

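Small nucleolar RNA (snoRNA) host genes were followed in A549 cells, a line derived from a human lung adenocarcinoma, after exposure to recombinant human surfactant protein D (rhSP-D). The 10 genes were taken by name as transcribed, largely non-coding hosts of snoRNAs: GAS5, SNHG1, SNHG5, SNHG6, SNHG7, SNHG8, SNHG12, SNHG15, ZFAS1 and EPB41L4A-AS1. They are 10 of 57773 genes in the count table, and all 10 had enough counts to be tested. Surfactant protein D is a secreted collectin, a carbohydrate-binding protein of innate immunity in the airspace. The rhSP-D group (n = 3) received 10 µg/ml for 48 h, and the vehicle group (n = 3) received the elution buffer of the protein in equal volume for the same time. Both groups were the same unmodified line in RPMI-1640 medium with fetal bovine serum, and no second line was compared.

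A snoRNA host gene makes 2 kinds of product from 1 primary transcript. Its introns carry snoRNAs, which are trimmed out after splicing and guide modification of ribosomal RNA: box C/D snoRNAs guide ribose methylation, and box H/ACA snoRNAs guide pseudouridylation. The spliced exons form a polyadenylated RNA that is what poly(A) sequencing reads. Many such hosts, like the ribosomal protein genes, begin transcripts with a C followed by a run of pyrimidines, the terminal oligopyrimidine (TOP) start through which mTORC1 and LARP1 control translation and stability. Since their short reading frames end early, ribosomes that reach the spliced RNAs can send them to nonsense-mediated decay, and host RNA is known to build up when translation slows.

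Vehicle libraries held 11396193 to 19803697 counts, of which 9686 to 16708 fell on the 10 host genes. The rhSP-D libraries held 18599955 to 26030880 counts, with 16772 to 23732 on these genes. Levels are given as CPM, a gene's counts set against the library total, scaled by TMM factors, so each value is relative to the rest of its library, and fewer cells expressing a gene cannot be told apart from less of its RNA per cell. Keratins of the labelled epithelial cell type were abundant, with KRT8 at 5043 CPM, KRT18 at 4125 and KRT7 at 2721 in vehicle, although KRT19 and EPCAM were low at 1.83 and 1.82 CPM. KRT7 rose to 3033 CPM (edgeR adjusted p = 4.43e-09) and KRT18 to 4268 CPM (adjusted p = 0.0131) with rhSP-D. Markers of other cells were sparse: the summed fibroblast genes were at 10.5 to 14.8 CPM with vehicle, at 13.2 to 14.2 with rhSP-D, and DCN was at 0, and the endothelial sum stayed at or below 0.3905 CPM. The leukocyte sum, 84.7 to 90.6 CPM with vehicle and 93.01 to 98.4 with rhSP-D, was carried by CD68, a lysosomal protein that many cells express, which rose as well (adjusted p = 0.0161), while PTPRC had 1 count in all and MS4A1 none. The part of these markers in the results below was not tested.

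The start of each gene is shown because the TOP start is a sequence feature that many non-coding hosts share with the ribosomal protein mRNAs. The table of RefSeq promoters used here (GRCh38.p14) matched 8 of the 10 genes, all but SNHG6 and SNHG15. Each line gives 35 bases before the annotated start and 20 bases from it, 5′ to 3′ on the gene's strand, with the unbroken pyrimidine run that opens the transcript in capitals.
SNHG5, chr6:85678714-85678768, minus strand: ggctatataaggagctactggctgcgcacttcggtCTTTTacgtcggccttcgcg
ZFAS1, chr20:49278607-49278661, plus strand: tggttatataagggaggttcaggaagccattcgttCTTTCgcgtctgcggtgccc
SNHG12, chr1:28581854-28581908, minus strand: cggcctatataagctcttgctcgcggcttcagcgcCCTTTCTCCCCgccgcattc
SNHG7, chr9:136728165-136728219, minus strand: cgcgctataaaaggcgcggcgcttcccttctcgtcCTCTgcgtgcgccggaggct
SNHG1, chr11:62855866-62855920, minus strand: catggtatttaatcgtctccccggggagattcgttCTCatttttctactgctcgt
SNHG8, chr4:118278727-118278781, plus strand: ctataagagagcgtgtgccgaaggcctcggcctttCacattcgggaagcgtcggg
EPB41L4A-AS1, chr5:112160491-112160545, plus strand: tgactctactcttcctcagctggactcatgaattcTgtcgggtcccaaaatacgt
GAS5, chr1:173869026-173869080, minus strand: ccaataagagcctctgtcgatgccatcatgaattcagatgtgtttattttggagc

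A C at the start that opens a run of at least 4 pyrimidines was found in 4 of the 8 genes (50%), which are SNHG5, SNHG7, SNHG12 and ZFAS1. The same was true of 5.45% of all 35116 RefSeq promoters and of 12 of 16 ribosomal protein genes with intronic snoRNAs (75.0%). It was also true of 5 of 20 other non-coding snoRNA hosts, described below (25.0%). The 10 genes were named as hosts with a TOP start, so their own share reflects that choice and is not a result. The letters TATAA were searched on both strands between 40 and 21 bases before the start. They were in 5 of the 8 genes (62.5%: SNHG5, SNHG7, SNHG8, SNHG12 and ZFAS1) and in 4.50% of all promoters. Of the 20 other non-coding hosts 1 had them (5.0%), as did 2 of the 16 ribosomal protein genes (12.5%). Genes have more than 1 start, and the RefSeq start of GAS5 does not open with a pyrimidine. In GENCODE 29, 6 of 29 GAS5 transcripts begin at another site of the minus strand, chr1:173867960-173867989, and their first 30 bases open with a run of 6 pyrimidines: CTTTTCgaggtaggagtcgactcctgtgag. Of all 132 GENCODE transcripts of the 10 genes, 25 begin with such a C and run, among them 3 of 5 of SNHG6, 1 of 25 of SNHG1 and none of the 10 of SNHG15 or the 4 of EPB41L4A-AS1. The share over all GENCODE transcripts was not counted, so the 25 of 132 have no background here. A match describes letters at annotated starts, and which start A549 cells use was not measured.

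The treated and vehicle libraries were compared to ask whether the spliced RNAs of these hosts differed after exposure to the protein. Of the 10 genes 7 rose, 0 fell and 3 did not pass the test (edgeR quasi-likelihood test, 2-sided, Benjamini-Hochberg adjusted p under 0.05 over 15848 genes). The background was 15.9% of genes called, 9.31% higher and 6.63% lower. In 9 of the 10 genes every rhSP-D library lay above every vehicle library, which held for 16.2% of all genes; the reverse, seen in none of the 10, held for 15.4%, and 31.5% did not overlap in either direction. The changes were small: the fitted log2 changes ran from -0.04 to 0.22 with a median of 0.16, or 11.9%, against a median of -0.01 for all genes tested. The share of counts on the 10 genes was 0.0851% ± 0.000858 with vehicle and 0.0916% ± 0.00173 with rhSP-D (mean ± SD, n = 3 each). Without TMM factors 4 of the 10 passed the test in place of 7, and SNHG5, SNHG6 and SNHG7 passed under all 18 other fits tried.

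**Figure D1:**
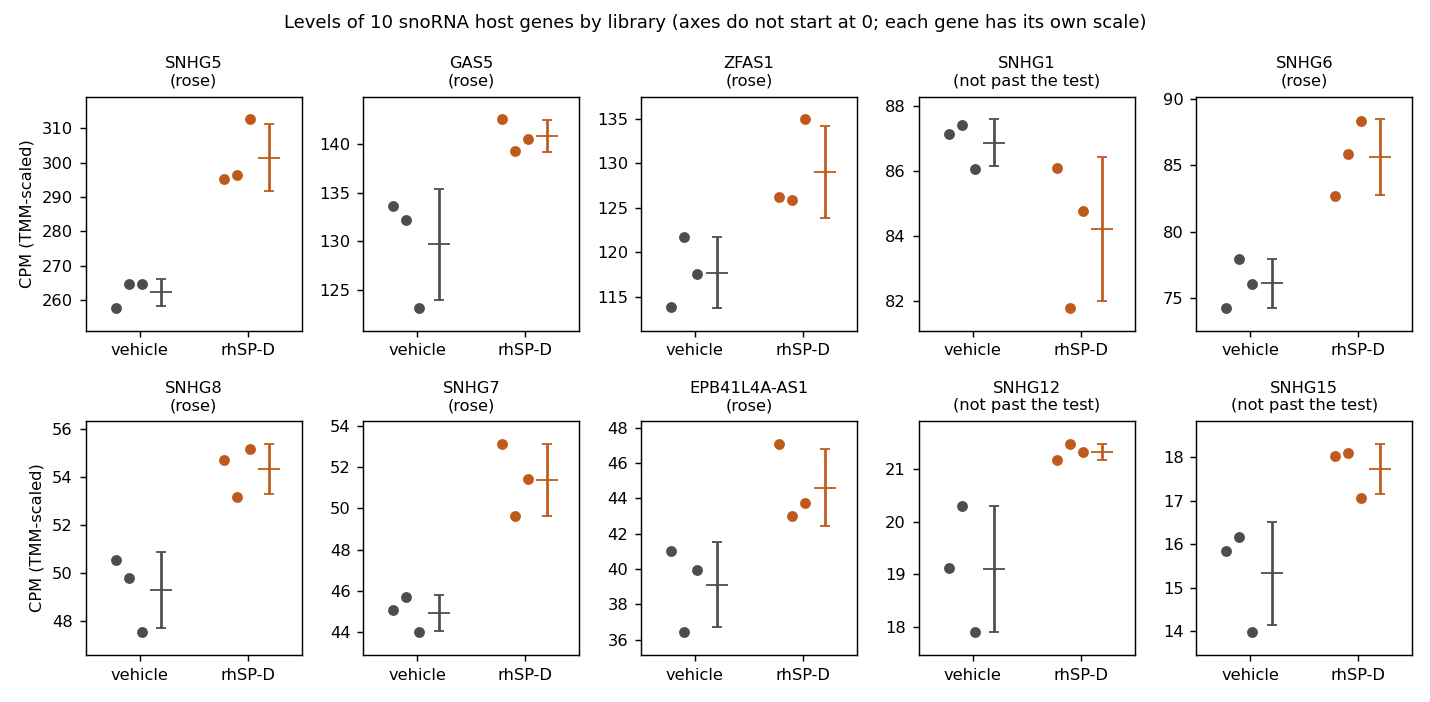
Level of each of the 10 snoRNA host genes in each library, in CPM scaled by TMM factors (points), with the group mean and SD (bars, n = 3) and a separate vertical scale per gene that does not start at 0. The rhSP-D points lie above all vehicle points in 9 genes, and in SNHG1 they overlap the vehicle points at 81.8 to 86.1 against 86.1 to 87.4 CPM.

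SNHG5 (ENSG00000203875, chr6:85660950-85678748, minus strand, GENCODE 29 on GRCh38) hosts the box C/D snoRNAs SNORD50A and SNORD50B and was the most abundant of the 10. Its level was 258, 265 and 265 CPM in vehicle replicates 1, 2 and 3 and 295, 296 and 313 CPM in rhSP-D replicates 1, 2 and 3. The groups did not overlap, and the highest value was that of rhSP-D replicate 3. It rose by 14.7% (95% interval 10.9 to 18.7; log2 change 0.20 ± 0.02 SE), with an adjusted p of 6.96e-07 in edgeR's test, the smallest of the 10. Of the counts on the 10 genes SNHG5 held 30.7 to 31.8% with vehicle and 31.8 to 32.9% with rhSP-D.

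GAS5 (ENSG00000234741, chr1:173863900-173868882, minus strand), growth arrest specific 5, was isolated as an RNA that accumulates in growth-arrested cells. With 11 snoRNAs it has more than any other member, namely SNORD44, SNORD47, SNORD74 to SNORD81 and SNORA103. Its level was 134, 132 and 123 CPM in vehicle and 143, 139 and 141 CPM in rhSP-D. Vehicle replicate 3 was the low value of its group, and the rhSP-D libraries lay close together (SD 1.65 against 5.70 in vehicle). GAS5 rose by 9.04% (95% interval 4.36 to 13.9; log2 change 0.12 ± 0.03 SE; edgeR adjusted p = 0.00498). Without vehicle replicate 3 the log2 change was 0.09 and no longer passed (adjusted p = 0.0991), and it did not pass without TMM factors either (log2 change 0.08, adjusted p = 0.0557).

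ZFAS1 (ENSG00000177410, chr20:49278178-49295738, plus strand) is transcribed away from the start of ZNFX1 and hosts SNORD12, SNORD12B and SNORD12C. Its level was 114, 122 and 118 CPM in vehicle and 126, 126 and 135 CPM in rhSP-D, so the groups did not overlap and rhSP-D replicate 3 was the highest. ZFAS1 rose by 9.22% (95% interval 4.27 to 14.4; log2 change 0.13 ± 0.03 SE; edgeR adjusted p = 0.00685). With trends on exonic length and GC content removed, the log2 change was 0.05 and did not pass (adjusted p = 0.402). The call was also lost without rhSP-D replicate 3 (0.09, adjusted p = 0.0751), without TMM factors (0.09, adjusted p = 0.0649) and after thinning to equal depth (adjusted p = 0.0571).

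SNHG6 (ENSG00000245910, chr8:66921684-66926398, minus strand) hosts the single box C/D snoRNA SNORD87. Its level was 74.2, 77.96 and 76.1 CPM in vehicle and 82.7, 85.9 and 88.3 CPM in rhSP-D. All rhSP-D libraries lay above all vehicle libraries. SNHG6 rose by 12.1% (95% interval 6.45 to 18.1; log2 change 0.16 ± 0.04 SE; edgeR adjusted p = 0.0018).

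SNHG12 (ENSG00000197989, chr1:28578538-28583132, minus strand) carries both kinds of snoRNA, the H/ACA RNAs SNORA16A, SNORA44 and SNORA61 and the C/D RNA SNORD99. Its level was 19.1, 20.3 and 17.9 CPM in vehicle and 21.2, 21.5 and 21.3 CPM in rhSP-D. The groups did not overlap, yet the difference did not pass the test (log2 change 0.16 ± 0.07 SE; 95% interval of the change 1.27 to 23.3%; edgeR adjusted p = 0.122). Its interval takes in the changes of all 7 genes that rose.

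Among the hosts of H/ACA snoRNAs alone, SNHG7 (ENSG00000233016, chr9:136721366-136728184, minus strand) carries SNORA17A and SNORA17B. Its level was 45.1, 45.7 and 44.002 CPM in vehicle and 53.1, 49.6 and 51.4 CPM in rhSP-D, with no overlap. SNHG7 rose by 14.7% (95% interval 7.70 to 22.2; log2 change 0.20 ± 0.04 SE; edgeR adjusted p = 0.0021).

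SNHG8 (ENSG00000269893, chr4:118278709-118279823, plus strand) hosts SNORA24 and has the shortest merged exons of the 10, at 923 bases. Its level was 50.5, 49.8 and 47.5 CPM in vehicle and 54.7, 53.2 and 55.2 CPM in rhSP-D, again without overlap. SNHG8 rose by 10.7% (95% interval 4.16 to 17.6; log2 change 0.15 ± 0.04 SE; edgeR adjusted p = 0.0174), and its call was the least stable of the 7. With the length and GC trends removed the log2 change was 0.06 (adjusted p = 0.470), without vehicle replicate 3 the adjusted p was 0.133, and without rhSP-D replicate 1 or 3 it was 0.0683 or 0.0677. DESeq2 gave 0.0779, the fit without TMM factors 0.0889 and thinned libraries 0.0529.

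EPB41L4A-AS1 (ENSG00000224032, chr5:112160526-112164276, plus strand) hosts SNORA13 and overlaps EPB41L4A on the other strand. Its level was 41.02, 36.4 and 39.9 CPM in vehicle and 47.1, 43.02 and 43.7 CPM in rhSP-D. The groups did not overlap, vehicle replicate 2 was the lowest library and rhSP-D replicate 1 the highest. The gene rose by 14.9% (95% interval 6.81 to 23.7; log2 change 0.20 ± 0.05 SE; edgeR adjusted p = 0.00687). Without vehicle replicate 2 or rhSP-D replicate 1 the log2 change was 0.15, with an adjusted p of 0.0706 or 0.0889.

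SNHG15 (ENSG00000232956, chr7:44983023-44986961, minus strand) hosts SNORA9 and had the fewest counts of the 10, with 183 in the shallowest library. Its level was 15.8, 16.2 and 13.97 CPM in vehicle and 18.04, 18.1 and 17.1 CPM in rhSP-D. The libraries did not overlap and the fitted log2 change, 0.22 ± 0.08 SE, was the highest of the 10, but it did not pass the test (95% interval of the change 3.99 to 30.1%; edgeR adjusted p = 0.0585). Without vehicle replicate 2 it passed (log2 change 0.27, adjusted p = 0.0437).

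SNHG1 (ENSG00000255717, chr11:62851988-62855914, minus strand) was the only one of the 10 with an estimate below 0. It hosts 9 snoRNAs, SNORD22 and SNORD25 to SNORD31 among them, and lies next to SLC3A2 and WDR74. Its level was 87.1, 87.4 and 86.1 CPM in vehicle and 86.1, 81.8 and 84.8 CPM in rhSP-D, and the groups overlapped. The fitted change was -2.86% (95% interval -7.47 to 1.98; log2 change -0.04 ± 0.03 SE; edgeR adjusted p = 0.469). The upper bound of 1.98% lies below the 4.16% of SNHG8, the lowest lower bound of the 7 genes that rose. Those 7 were selected by passing the test, which itself keeps their lower bounds above 0. Of the others that did not pass, SNHG15 had a lower bound of 3.99% and SNHG12 one of 1.27%, which is below 1.98%. As a share of the summed counts of the other 9 genes SNHG1 was 11.6, 11.4 and 11.6% in vehicle and 10.2, 9.82 and 9.80% in rhSP-D, with no overlap. This ratio does not depend on library scaling, but it restates the values above, since the other 9 genes all had estimates above 0. SNHG1 was singled out after its values were seen, so no test of it against the others is given.

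**Figure D2:**
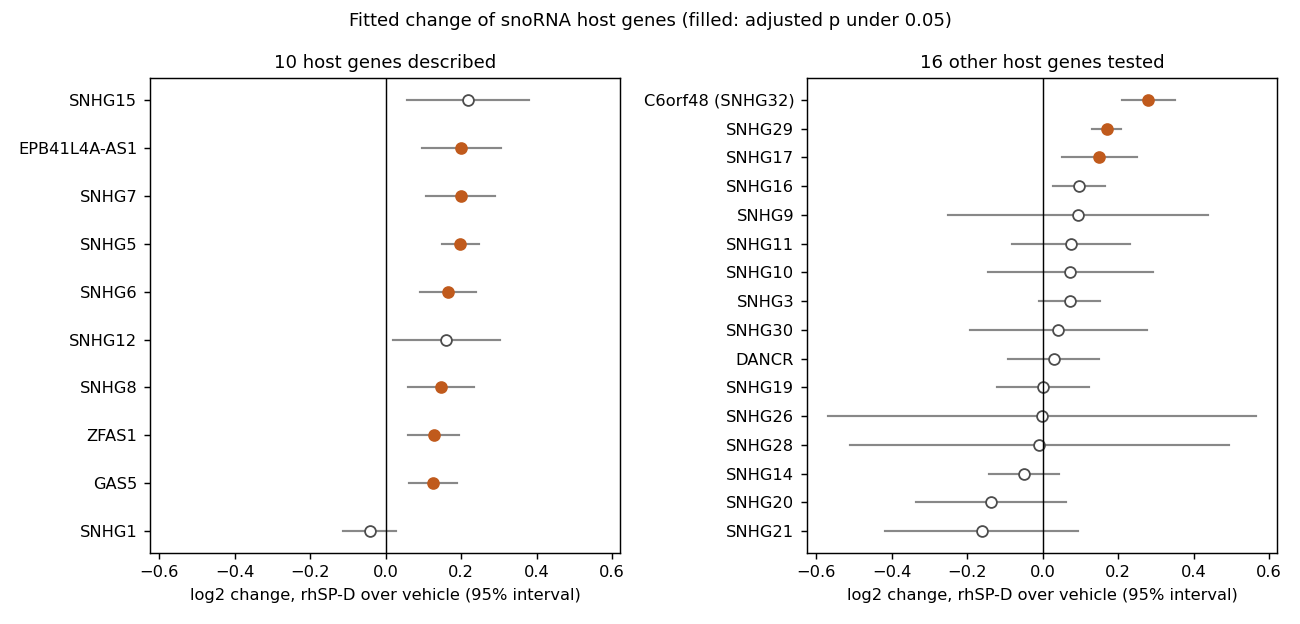
Fitted log2 change, rhSP-D over vehicle, with 95% intervals, for the 10 host genes (left) and 16 other non-coding snoRNA hosts (right); filled points passed an adjusted p of 0.05. On the left 9 estimates lie above 0 and SNHG1 lies at -0.04, whereas the estimates on the right run from -0.16 to 0.28.

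Levels of different genes were compared per kilobase of merged exons, which include exons that A549 cells may not use. On this scale SNHG5 led in vehicle at 93.5 CPM per kilobase, followed by SNHG6 at 61.02, SNHG8 at 53.4, ZFAS1 at 52.5, GAS5 at 35.7 and SNHG1 at 23.1. EPB41L4A-AS1 at 11.7, SNHG7 at 10.3, SNHG12 at 4.48 and SNHG15 at 4.20 came last. The vehicle ranges of SNHG8 and ZFAS1 overlapped, at 51.5 to 54.75 and 50.73 to 54.27. Those of SNHG12 and SNHG15 overlapped as well, at 4.20 to 4.76 and 3.83 to 4.43, although SNHG12 was the higher in every vehicle library. Ranges do not use the fact that both genes were read in the same libraries, so small differences in level are not excluded. Over the 6 genes with the highest level per kilobase the fitted log2 changes fell in the order of level, from 0.20 for SNHG5 to -0.04 for SNHG1, whereas the 4 lowest, from EPB41L4A-AS1 to SNHG15, had changes of 0.20, 0.20, 0.16 and 0.22. This order, and the cut after 6 genes, were seen after the values and are a description. The changes of SNHG8, ZFAS1 and GAS5, at 0.15, 0.13 and 0.12, differed by less than their SEs of 0.03 to 0.04.

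The snoRNAs themselves were not measured. RefSeq places 35 snoRNAs inside the 10 genes. Of these, 22 have their symbol in the count table, in 44 gene entries, and every entry held 0 counts in all 6 libraries, which allows up to 3 counts per library for each. In the whole count data 859 entries carry SNORD, SNORA or SCARNA names, of which 25 had any count, with 230 to 551 counts per library in all. The values above describe the spliced host RNAs only. Poly(A) selection leaves out most mature snoRNAs, so the zeros say nothing about their level.

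Several hosts share exonic bases with genes of the opposite strand, and the library kit named in the protocols does not mark strand, so reads from those bases cannot be told apart. The overlap is 1659 of 3344 exonic bases in EPB41L4A-AS1, 1094 of 4345 in SNHG7, 585 of 2243 in ZFAS1, 365 of 1247 in SNHG6, 42 of 3631 in GAS5 and 8 of 4266 in SNHG12. SNHG1, SNHG5, SNHG8 and SNHG15 have none. None of the 8 opposite genes passed the test: EPB41L4A was at 11.95 CPM in vehicle and 10.4 in rhSP-D (edgeR adjusted p = 0.162), FAM69B across from SNHG7 at 10.1 and 11.8 (adjusted p = 0.139), and ZNFX1 across from ZFAS1 at 45.4 and 44.5 (adjusted p = 0.744). Of 17 tested genes in a list of neighbours, which did not hold FAM69B or MCMDC2, 2 rose and 0 fell, against 9.31% and 6.63% of all genes. The 2 were SLC3A2 and WDR74, and so small a count does not set the neighbours apart from other genes. SLC3A2, the heavy chain of amino acid transporters, had a log2 change of 0.07 (adjusted p = 9.54e-04), and WDR74, a ribosome assembly factor, one of 0.13 (adjusted p = 0.0229). Neither passed without TMM factors or with the length and GC trends removed.

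Other non-coding snoRNA hosts were taken from a list of 25 names, of which 22 were in the table and 16 could be tested. Of these 3 rose and 0 fell, against 9.31% and 6.63% of all genes, and their median log2 change was 0.06. SNHG29, the most abundant of the tested non-coding hosts, was at 448, 453 and 448 CPM in vehicle and 509, 498 and 511 CPM in rhSP-D and rose by 12.5% (log2 change 0.17 ± 0.02 SE; edgeR adjusted p = 1.78e-07). C6orf48, also named SNHG32, was at 79.5, 79.5 and 77.1 CPM in vehicle and 94.5, 97.9 and 93.8 CPM in rhSP-D and rose by 21.4% (log2 change 0.28 ± 0.03 SE; edgeR adjusted p = 7.87e-07). Both passed under every alternative. SNHG17 was at 51.7, 53.9 and 46.2 CPM in vehicle and 56.002, 55.4 and 56.4 CPM in rhSP-D (log2 change 0.15 ± 0.05 SE; edgeR adjusted p = 0.0298), and without vehicle replicate 3 its log2 change was 0.08 (adjusted p = 0.346). Its call was lost in 10 of the 18 alternatives, the removal of length and GC trends among them (0.14, adjusted p = 0.0553).

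The other 13 tested hosts did not pass. SNHG16 had a log2 change of 0.10 with no overlap between groups (edgeR adjusted p = 0.0526) and passed once the length and GC trends were removed (0.14, adjusted p = 0.0061). The log2 change was 0.07 for SNHG3, 0.09 for SNHG9, 0.07 for SNHG10, 0.08 for SNHG11, 0.03 for DANCR and 0.04 for SNHG30. It was -0.05 for SNHG14, -0.14 for SNHG20, -0.16 for SNHG21 and -0.01 for SNHG28, and SNHG26 and SNHG19 lay at 0.00. SNHG19 was called lower once the trends were removed (-0.18, adjusted p = 0.0403).

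Genes that work with or resemble the hosts were taken from lists chosen by function, and each list is described by its counts and median. Over all genes tested 9.31% rose and 6.63% fell, and the median log2 change was -0.01. Of 24 ribosomal protein genes that carry snoRNAs in introns 23 rose and 0 fell, with a median log2 change of 0.17, close to the 0.16 of the 10 hosts. RPL13A, which hosts box C/D snoRNAs, went from 3745, 3801 and 3746 CPM to 4337, 4333 and 4333 CPM (log2 change 0.20; edgeR adjusted p = 1.98e-11), RPS2 had a log2 change of 0.20 and RPS3 one of 0.21. RPL21 had a log2 change of 0.17 that did not pass (adjusted p = 0.128). Their reads can be shared with processed pseudogenes.

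Of 21 translation factors and other mRNAs known for a TOP start 14 rose and 1 fell, with a median log2 change of 0.09. EEF1D, a subunit of the exchange factor of elongation factor 1, rose by 0.21 on the log2 scale, GNB2L1 (RACK1), a scaffold of the small ribosomal subunit, by 0.17 and EEF1G by 0.14. IPO7, a nuclear import receptor, fell by 0.09. Without TMM factors 9 of the 21 rose. Of the TOP mRNAs with a RefSeq promoter, 10 of 14 (71.4%) had the C and pyrimidine run that 4 of the 8 hosts have.

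Proteins that bind or assemble snoRNAs numbered 19, of which 9 rose and 0 fell, with a median log2 change of 0.09. FBL, the methyltransferase of box C/D particles, was at 346, 345 and 333 CPM in vehicle and 392, 385 and 391 CPM in rhSP-D (log2 change 0.19; edgeR adjusted p = 1.15e-07). NHP2, a core protein of H/ACA particles, had a log2 change of 0.19 (adjusted p = 2.73e-06), as did its partners NOP10 with 0.18, GAR1 with 0.20 and DKC1, the pseudouridine synthase, with 0.13. RUVBL2, an assembly ATPase, had one of 0.14 (adjusted p = 1.07e-04). NOP56 and NOP58, also core C/D proteins, did not pass at 0.05 and 0.09. NHP2L1 (SNU13), another core C/D protein, rose by 0.14 on the log2 scale (edgeR adjusted p = 0.018). The count fell to 5 without TMM factors and to 4 with the length and GC trends removed together with a replicate block.

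Of 22 genes of ribosome biogenesis and RNA polymerase I 4 rose and 0 fell, with a median log2 change of 0.04. They were RRP9, a protein of the U3 particle, at 0.21, TAF1D and POLR1D at 0.13 each and BOP1, a large-subunit assembly factor, at 0.10. MYC, a driver of ribosome production, had a log2 change of 0.01 that did not pass (edgeR adjusted p = 0.920). Only 1 of the 22 rose without TMM factors.

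Because host RNAs can be substrates of nonsense-mediated decay, its factors and other known targets were read in the same fit. Of 20 factors 3 rose and 4 fell, with a median log2 change of 0.03. SMG1, the kinase that acts on UPF1, was at 79.1, 82.3 and 83.1 CPM in vehicle and 69.6, 72.3 and 68.5 CPM in rhSP-D and fell by 0.22 on the log2 scale (edgeR adjusted p = 6.31e-05). NBAS fell by 0.16 and XRN1, the exonuclease that removes decapped RNA, by 0.28, while UPF3A rose by 0.17 and RNPS1 and RBM8A by 0.09 each. UPF1 itself had a log2 change of -0.04 that did not pass (adjusted p = 0.508).

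Of 12 mRNAs known as targets of this decay 5 rose and 1 fell, with a median of 0.08. GABARAPL1 rose by 0.21 on the log2 scale, NPRL2 by 0.23, GADD45B by 0.16, TBL2 by 0.12 and ATF4 by 0.11, and the one that fell was SMG1. SMG1, SMG5 and UPF1 stand in both the factor list and the target list, so the counts of these lists are not separate. GADD45A, another such target, had a log2 change of -0.12 that did not pass (edgeR adjusted p = 0.210). These small counts moved with the processing, from 0 to 5 factors in either direction and from 2 to 5 targets higher.

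Of 20 genes of mTORC1 and LARP1, which act on TOP transcripts, 5 rose and 2 fell, with a median log2 change of -0.02. EIF4EBP1, a translation repressor that mTORC1 phosphorylates, was at 197, 199.8 and 193 CPM in vehicle and 227, 225 and 223 CPM in rhSP-D (log2 change 0.20; edgeR adjusted p = 7.62e-07). TBC1D7 rose by 0.27, AKT1S1 and RPS6KB2 by 0.13 each and RHEB, the GTPase that activates mTORC1, by 0.10. MTOR fell by 0.13 (adjusted p = 0.0363) and CNBP, a protein that binds TOP mRNAs, by 0.09. LARP1, which binds the TOP start itself, had a log2 change of -0.06 that did not pass (adjusted p = 0.0807). Across the alternatives 2 to 5 of the 20 rose and 0 to 5 fell.

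**Figure D3:**
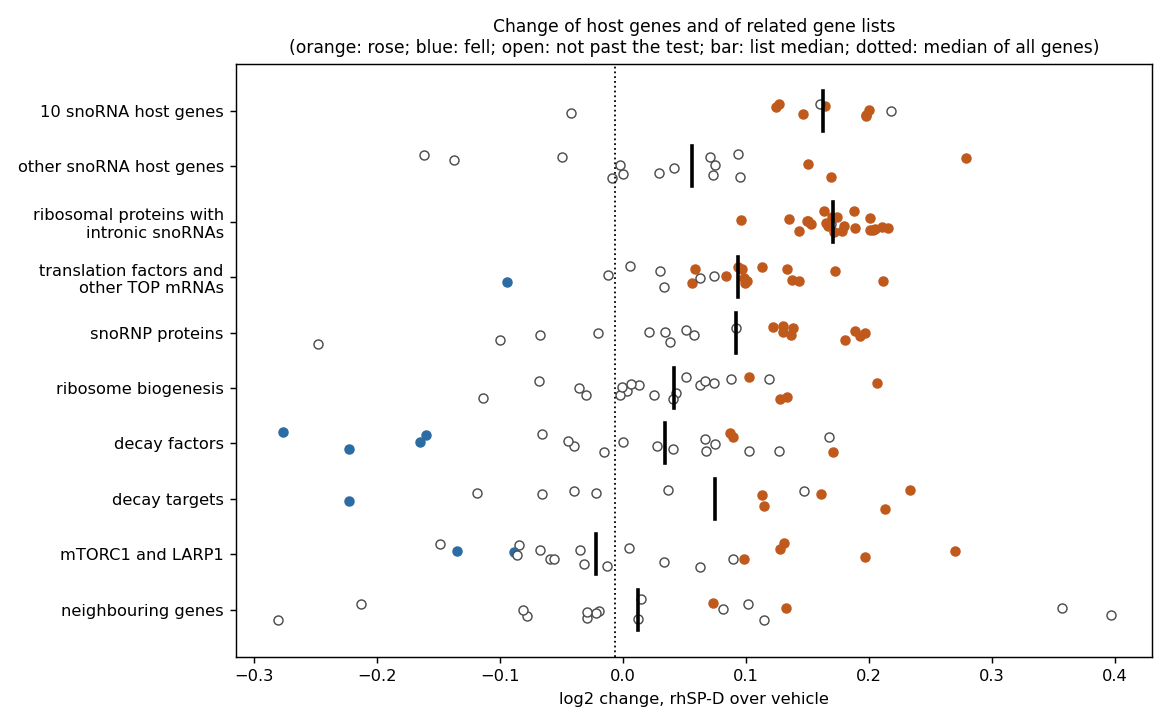
Fitted log2 change, rhSP-D over vehicle, of every tested gene in the 10 host genes and in each related list, with the list median as a bar and the median of all genes as a dotted line; orange points rose, blue points fell and open points did not pass the test. The hosts and the ribosomal protein genes have medians of 0.16 and 0.17, and the other lists have medians between -0.02 and 0.09.

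With length and GC trends removed 5 of the 10 hosts rose in place of 7, GAS5, SNHG5, SNHG6, SNHG7 and EPB41L4A-AS1. Over 179 combinations of gene and alternative, 161 kept their side of the threshold, 17 lost the call, 1 gained it and 0 changed direction. No host was called lower under any of them.

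**Figure D4:**
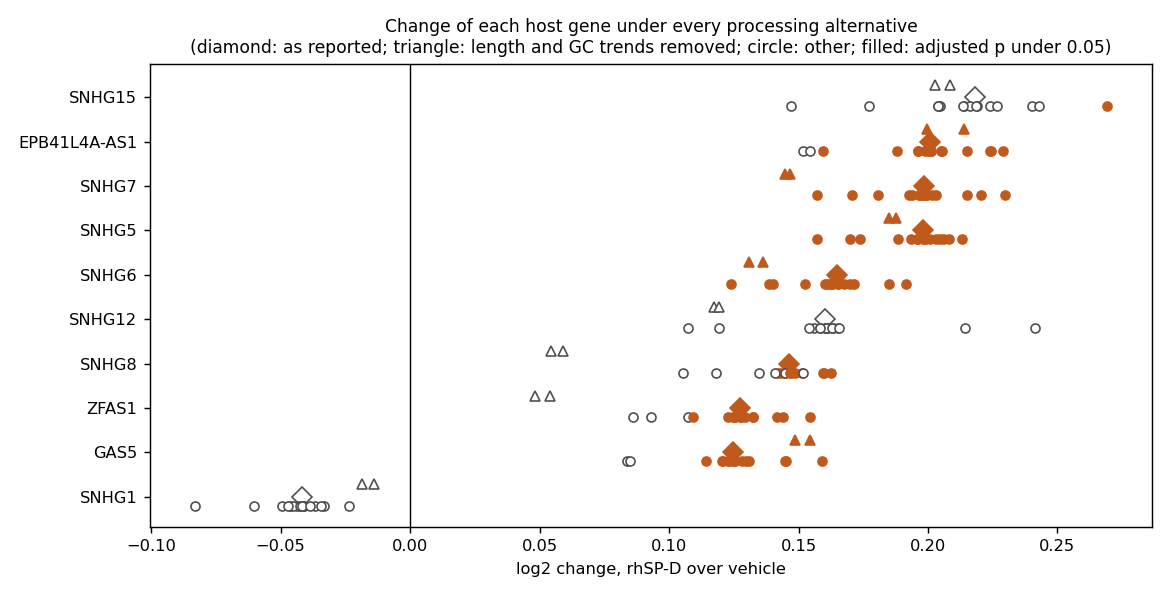
Fitted log2 change of each of the 10 host genes as reported (diamond), with length and GC trends removed (triangles, with and without a replicate block) and under every other processing alternative (circles), filled where the adjusted p was under 0.05. SNHG5, SNHG6 and SNHG7 are filled throughout, the triangles of SNHG8 and ZFAS1 lie at 0.05 to 0.06, and SNHG1 stays between -0.08 and -0.01.

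The genes whose pattern over the 6 libraries was most like the mean of the 10 hosts were taken from the 9804 genes that averaged 10 CPM or more. They were SLC25A5, an adenine nucleotide carrier of mitochondria (Pearson r = 0.999; log2 change 0.12), ENO1, the glycolytic enolase (0.998; 0.12), GNG11, a G protein gamma subunit (0.998; 0.18), C16orf45 (0.998; 0.23) and EEF1G (0.997; 0.14). With 6 libraries in 2 groups such values mostly describe the difference between groups, and they are given as a description.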

How the data were processed

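Poly(A) RNA of 6 A549 samples was sequenced in paired ends from libraries made with the NEBNext Ultra RNA kit, per the labels' protocols. The deposited table holds raw counts, as whole numbers for each gene. Cutadapt, STAR 2.7.0a, featureCounts 2.0.0 and GRCh38 are named in the submitters' processing notes; the annotation release, strand setting and treatment of multi-mapped reads were not given in the sources used. Genes passing filterByExpr (minimum count 10, minimum total 15) were scaled by TMM and compared with edgeR 4.0.16 in R 4.3.3 (robust quasi-likelihood fit, 2-sided, Benjamini-Hochberg adjustment over 15848 genes). "Rose" and "fell" mean an adjusted p under 0.05. SEs come from the test statistic, CPM are TMM-scaled and intervals are at 95%.

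The 10 genes and all lists were chosen with earlier results of these data known. Named list genes are up to 3 with the smallest p in each direction, and those that spell out small counts. Others (NOP10, GAR1, DKC1, NHP2L1, NOP56, NOP58, MYC, UPF1, GADD45A, LARP1) were chosen after their values were seen. A gene that met the rule is not reported here. Of 197 list entries 183 matched by symbol, 11 by gene ID and 3 did not. Coordinates and exon lengths are from GENCODE 29, start sequences from RefSeq GRCh38.p14. Likeness used log2 CPM with a pseudocount of 0.5.

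Whether the triplicates were separate cultures is not stated, and p-values reflect only the variation among these libraries, part or all of which may be technical. Chi-square per degree of freedom between libraries was 1.92 to 2.15 within groups, so none was a copy of another. Alternatives were other scalings and filters, DESeq2 1.42.0, limma-voom (limma 3.58.1), thinning, removal of length and GC trends (splines with 5 degrees of freedom), a replicate block and leaving out each library. The procedure was also run on simulated counts, with the same dispersion for every gene and no length or GC trends. That run therefore does not cover how such trends act on the calls here.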

Additional observations from a re-analysis of the deposited data

How the results depend on the processing

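Of the 10 hosts 7 rose; 4 did without TMM factors (SNHG5, SNHG6, SNHG7 and EPB41L4A-AS1), 5 with libraries thinned or length and GC trends removed, 6 with DESeq2 and 5 to 7 when a library was left out. Over all genes 1475 were higher and 1051 lower. Library totals alone gave 856 and 1961, which reverses the balance, and moved the median of all genes by -0.04 on the log2 scale. DESeq2 gave 518 lower and the removed trends 515; the removed trends with the replicate block gave 969 and 432, and an adjusted p under 0.01 gave 939 and 526. Leaving out a library gave 1042 to 1336 higher and 636 to 892 lower, with 643 without vehicle replicate 3 and 636 without rhSP-D replicate 1. Libraries with the same replicate number correlated at -0.08, -0.06 and 0.03 after centring within groups, against -0.09 to 0.15 for the other pairs. With 3 libraries per group these values do not settle whether samples were paired. With the replicate block 7 hosts, 1374 higher and 945 lower genes were called. The members' share was 0.0923% in vehicle and 0.0994% in rhSP-D without mitochondrially encoded genes, and 0.0840% in vehicle over the TMM-scaled size. DESeq2 gave no adjusted p for SNHG15. The causes were not tested. The lowest count in any library was 183 for SNHG15 and 221 for SNHG12, both in vehicle replicate 1. The part of depth in their results was not tested.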
